A study of Mus musculus with 3 samples.

Results

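The 10 genes described here are members of the Notch pathway and genes tied to arterial identity: the receptors Notch1 and Notch4, the ligands Dll4, Jag1 and Jag2, the target genes Hey1 and Hes1, the connexins Gja4 and Gja5, and the ephrin ligand Efnb2. They were taken as a list of names, with earlier results of these data known, and all 10 are among the 17126 genes of the tables. They were measured in single cells of the mouse heart interstitium, obtained by collagenase II digestion and a slow spin that removes cardiomyocytes, and then sorted by flow cytometry on surface Lin28, an RNA-binding protein, and surface cKit, a receptor tyrosine kinase. There were 3 groups of 1 library each: Lin28-negative cKit-negative (3976 cells), Lin28-positive cKit-negative (681 cells) and Lin28-positive cKit-positive (1176 cells), and values of 3 libraries are given in that order. The series title links surface Lin28A with cellular stress and senescence. All groups shared the same dissociation and droplet-based 3' assay, and strain, genotype, age, sex and number of the mice are details not given in the sources used here.

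Notch receptors are cut when a ligand on a neighbouring cell binds them, and the freed intracellular part enters the nucleus, where it joins the DNA-binding protein Rbpj and switches on genes of the Hes and Hey families. In vessels this signal favours arterial over venous identity, and Dll4 is its main ligand on arterial and growing endothelium. Gja4 (connexin 37) and Gja5 (connexin 40) form the gap junctions of arterial endothelium, and Efnb2 (ephrin-B2) is a classic arterial surface marker whose partner Ephb4 marks veins.

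The libraries held 34031955, 7401174 and 10400648 UMIs (unique molecular identifiers, which count captured transcripts), with medians of 8630, 9628 and 8068.5 UMIs per cell. Cells were clustered with the 10 genes and all genes of 10 related lists left out of the clustering genes, so the genes described did not build the clusters. The endothelial-like class passed its label check (9 or 10 of its 10 markers up in each cluster) and held 911, 243 and 428 cells, 22.9%, 35.7% and 36.4% of the libraries, with medians of 4098, 7679 and 5595 UMIs per cell. It comprised a capillary-like cluster (366, 146 and 242 cells; 8 of 8 capillary markers), an arterial-like cluster (309, 35 and 112 cells; 6 of 8 arterial markers), an endocardial-like cluster (106, 11 and 32 cells; 6 of 6 markers) and a cluster left unnamed, with Serpina1b and Ptprr among its leading genes (130, 51 and 42 cells). Subtype markers were counted as raised against all other cells. By that count the unnamed cluster had 7 of 8 markers of 1 subtype raised, but 0 among its leading genes. The marker counts alone therefore do not separate these clusters. The largest other classes were fibroblast-like (2761, 34 and 10 cells) and macrophage-like (14, 266 and 593 cells). The Lin28-negative library shared 0 cell barcodes with the Lin28-positive cKit-negative and 8 with the cKit-positive library, and the Lin28-positive libraries shared 1.

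The first question was which cells carry these genes. Of the 12028 Hes1 UMIs and 825 Jag1 UMIs in all libraries together, 29.2% and 26.5% lay in endothelial-like cells, which held 17.0% of all UMIs. For the other 8 genes the endothelial-like share ran from 56.4% for Notch1 (of 3360 UMIs) to 94.0% for Gja5 (of 50 UMIs), through 68.6% for Gja4, 81.5% for Hey1, 82.8% for Notch4, 85.7% for Jag2, 86.1% for Dll4 and 86.2% for Efnb2. Endothelial-like cells thus took a larger part of every member's UMIs than of UMIs at large. The arterial-like cluster alone, with 3.83% of all UMIs, held 88.0% of Gja5, 64.9% of Hey1, 48.4% of Gja4 and 33.9% of Efnb2 UMIs, against 6.20% of Hes1 and 7.64% of Jag1 UMIs. Fibroblast-like cells, with 55.2% of all UMIs, held 57.8% of Jag1 and 49.2% of Hes1 UMIs. These shares pool libraries of unlike makeup: by library, fibroblast-like cells held 469 of 617, 6 of 120 and 2 of 88 Jag1 UMIs and 5770 of 7422, 123 of 2162 and 23 of 2444 Hes1 UMIs, while endothelial-like cells held 116, 60 and 43 Jag1 UMIs.

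**Figure D1:**
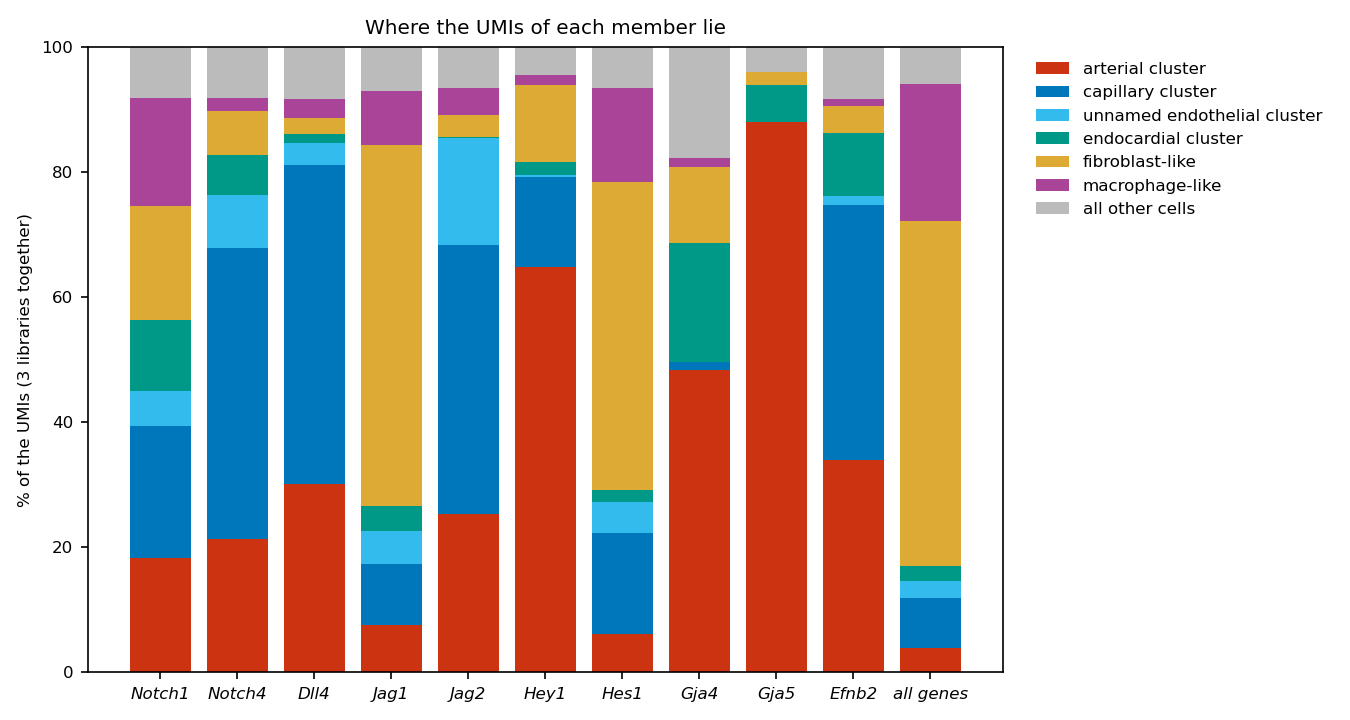
Share of each gene's UMIs (percent of its UMIs in the 3 libraries together, y axis) by cell class or endothelial cluster (colours), for the 10 genes and for all genes together along the x axis. Gja5 and Hey1 are mostly in the arterial-like cluster (88.0% and 64.9%), while Jag1 has its largest part in fibroblast-like cells (57.8%), 469 of whose Jag1 UMIs are from the Lin28-negative library.

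Levels are given as CPM, the UMIs of a gene summed over the cells of a cluster in a library and scaled to a common total, and set against other levels of the same gene only, since CPM does not rank genes against each other here. Intervals are 95% and cover counting error only, since no group has a replicate library, so there is no test and no measure of the spread between animals. A ratio is called when it or its inverse is at least 1.5, its interval excludes 1 and the pair holds at least 20 UMIs. The rule describes the 2 sums of cells compared and makes no statement about the sort groups at large.

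Among the receptors, Notch1 (ENSMUSG00000026923.15, mm10 chromosome 2, 26457903 to 26516663, minus strand) was at 160.1, 184 and 166 CPM in capillary-like cells. In arterial-like cells it was at 313, 273 and 315 CPM, and in endocardial-like cells at 289, 432 and 337 CPM. Both clusters were above the capillary-like cluster in each library. Arterial-like against capillary-like cells gave ratios of 1.96 (interval 1.66 to 2.31), 1.49 (1.09 to 1.99) and 1.90 (1.56 to 2.30), and the middle one falls just short of the 1.5 required. Notch1 was also present outside endothelium, at 53.0 and 49.9 CPM in macrophage-like cells (Lin28-positive libraries) and at 21.4 CPM in the fibroblast-like cells of the Lin28-negative library. Notch4 (ENSMUSG00000015468.14, chromosome 17, 34564268 to 34588503, plus strand), a receptor largely restricted to endothelium, did not separate the same clusters: 61.1, 70.6 and 62.1 CPM in capillary-like and 56.7, 51.7 and 76.7 CPM in arterial-like cells. In endocardial-like cells Notch4 was at 32.6, 24.7 and 23.1 CPM, below both clusters in every library, although the last 2 values rest on 2 and 7 UMIs.

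The 3 ligands followed separate patterns. Dll4 (ENSMUSG00000027314.6, chromosome 2, 119325784 to 119335962, plus strand) was at 126, 140.5 and 169 CPM in capillary-like cells and at 162, 197 and 211 CPM in arterial-like cells. It was higher in the arterial-like cluster of each library, by ratios of 1.29, 1.41 and 1.25 that were not called. In the endocardial-like cluster it was at 8.16, 24.7 and 29.7 CPM (7, 2 and 9 UMIs), so a cluster with high Notch1 had little Dll4. The unnamed endothelial cluster was also low, at 30.7, 19.8 and 45.9 CPM. Its level in fibroblast-like cells of the Lin28-negative library was 1.07 CPM and in macrophage-like cells 3.62 and 2.65 CPM. Jag2 (ENSMUSG00000002799.6, chromosome 12, 112907819 to 112929776, minus strand) was at 104, 98.3 and 76.5 CPM in capillary-like, 115, 108 and 118 CPM in arterial-like and 101, 129.9 and 106 CPM in the unnamed endothelial cells. In endocardial-like cells only 1, 0 and 1 Jag2 UMIs were found, and the 0 in 11 cells allows up to 37.0 CPM (3 UMIs). Jag1 (ENSMUSG00000027276.7, chromosome 2, 137081456 to 137116644, minus strand), a ligand that is widely expressed outside endothelium, was at 21.9, 23.5 and 12.3 CPM in capillary-like and 37.5, 51.7 and 14.4 CPM in arterial-like cells. Pericyte-like cells, a cluster of 45, 12 and 8 cells that also carries smooth muscle genes, had Jag1 levels of 53.1, 87.5 and 86.8 CPM from 10, 9 and 7 UMIs.

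The 2 target genes differed in where they were found. Hey1 (ENSMUSG00000040289.8, chromosome 3, 8663359 to 8667256, minus strand), a transcriptional repressor induced by Notch in arteries, was at 279, 461 and 366 CPM in arterial-like cells. In capillary-like cells it was at 32.5, 25.2 and 43.0 CPM, and in the unnamed endothelial cluster at 0, 6.60 and 0 CPM. The levels of the arterial-like cluster lay above every other endothelial level in each library. The ratios of arterial-like to capillary-like cells were 8.58 (6.34 to 11.8), 18.3 (12.1 to 28.4) and 8.51 (6.41 to 11.4). Hes1 (ENSMUSG00000022528.8, chromosome 16, 30064384 to 30067796, plus strand), a repressor used by many cell types, was instead at 313, 602 and 414 CPM in arterial-like and 379, 598 and 434 CPM in capillary-like cells. Its ratios between these clusters were 0.828, 1.01 and 0.953, none of them called, and its endocardial-like levels of 179, 173 and 234 CPM were the lowest of the 4 endothelial clusters in each library.

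The connexins and Efnb2 marked the arterial-like cluster. Gja4 (ENSMUSG00000050234.7, chromosome 4, 127311421 to 127314039, minus strand) was at 144, 70.5 and 136 CPM in arterial-like cells (165, 15 and 85 UMIs) and had 3, 1 and 3 UMIs in capillary-like cells. The ratios were 72.3 (24.3 to 354) in the Lin28-negative and 66.3 (21.9 to 328) in the Lin28-positive cKit-positive library, while the Lin28-positive cKit-negative pair held 16 UMIs, under the minimum of 20. The unnamed endothelial cluster had 0 Gja4 UMIs in all 3 libraries, which allows up to 4.61, 6.60 and 10.6 CPM. Gja4 was not confined to the arterial-like cluster: endocardial-like cells were at 64.1, 259 and 92.4 CPM and pericyte-like cells at 255, 117 and 248 CPM. Of the 21 endocardial-like UMIs behind the value of 259 CPM, 12 came from 1 of 11 cells, without which the level was 129 CPM. Gja5 (ENSMUSG00000057123.14, chromosome 3, 96904693 to 97077416, plus strand) had 19, 4 and 21 UMIs in arterial-like cells (16.6, 18.8 and 33.6 CPM) and none in capillary-like cells. The lower ends of the intervals of the arterial-like to capillary-like ratio were 6.13, 3.82 and 12.2; the first 2 pairs held 19 and 4 UMIs, under the minimum of 20, and the last was called higher. Efnb2 (ENSMUSG00000001300.16, chromosome 8, 8617434 to 8661242, minus strand) was at 213, 282 and 224 CPM in arterial-like, 125, 145 and 114 CPM in capillary-like and 10.8, 13.2 and 21.2 CPM in the unnamed endothelial cells. It was called higher in arterial-like than capillary-like cells of every library, at 1.71 (1.40 to 2.07), 1.94 (1.42 to 2.61) and 1.96 (1.56 to 2.47).

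Counted together, 5, 2 and 6 members were called higher in arterial-like than in capillary-like cells, and 0 were called lower in any library. Over all genes measured, 5.95%, 5.38% and 5.52% were called higher and 5.83%, 4.23% and 5.09% lower in the same comparisons. Only 35 arterial-like cells stand behind the middle library. The genes were named as arterial genes before this count, with earlier results of these data known. The direction therefore describes the clusters and is no independent evidence. Where every cell was thinned to 1000 UMIs, the members at a higher level in arterial-like cells of all 3 libraries were Notch1, Hey1, Gja4 and Efnb2 (4 members, against 8 with all UMIs).

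**Figure D2:**
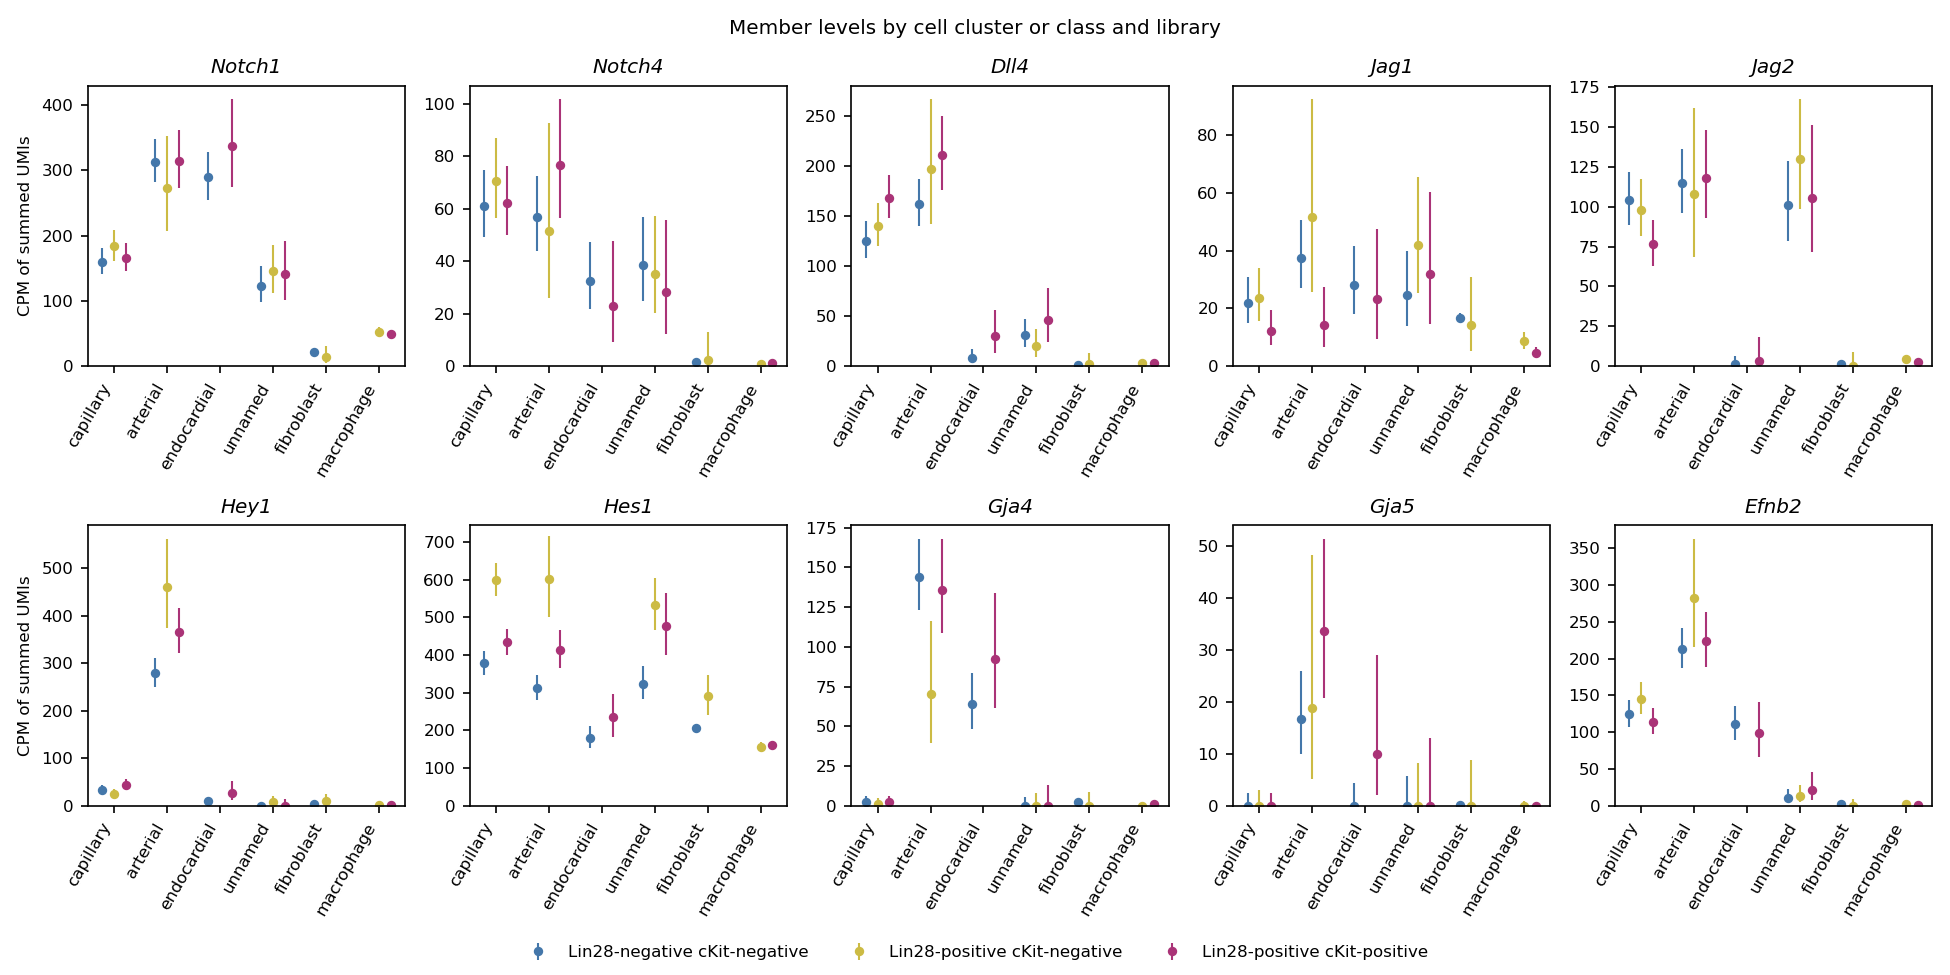
Level of each gene (CPM of summed UMIs, y axis, own scale for each gene and starting at 0) in the cell classes and endothelial clusters along the x axis, with 1 point per library (colour) and 95% Poisson intervals; groups under 30 cells are left out. Hey1 and Gja5 peak in the arterial-like cluster, Notch1 is high in arterial-like and endocardial-like cells, and Hes1 is present in every class plotted.

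The stretches just before the transcription starts are shown for 4 of the members whose level was higher in arterial-like than in capillary-like cells of every library, so that genes sharing this order can be compared. They are the 250 bases before the RefSeq start, on GRCm38.p6 and read 5′ to 3′ along the gene's strand; 8 of the 10 members matched the RefSeq table, all except Hey1 and Hes1. Capitals mark matches to CACNAG (the N-box, bound by Hes proteins; CTNGTG on the other strand) and to ACAAT (a core recognised by Sox factors; ATTGT on the other strand). The Dll4 window, chr2:119325534-119325783, plus strand, overlaps an exon of the antisense gene Gm14207; the others overlap no annotated exon. The Gja5 window, chr3:97032152-97032401, plus strand, lies inside the GENCODE gene, whose first start is at 96904693. The Gja4 window is chr4:127314040-127314289 and that of Efnb2 chr8:8661243-8661492, both on the minus strand.
Dll4: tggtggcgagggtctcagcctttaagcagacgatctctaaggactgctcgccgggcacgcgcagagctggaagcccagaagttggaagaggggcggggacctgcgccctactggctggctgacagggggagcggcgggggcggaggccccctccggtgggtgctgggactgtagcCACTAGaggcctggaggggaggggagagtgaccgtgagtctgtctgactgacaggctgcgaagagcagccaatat
Gja4: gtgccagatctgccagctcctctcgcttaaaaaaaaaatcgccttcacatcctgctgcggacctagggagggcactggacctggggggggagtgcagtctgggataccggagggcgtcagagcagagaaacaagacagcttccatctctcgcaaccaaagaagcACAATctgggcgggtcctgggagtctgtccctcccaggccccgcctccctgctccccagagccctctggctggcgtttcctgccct
Gja5: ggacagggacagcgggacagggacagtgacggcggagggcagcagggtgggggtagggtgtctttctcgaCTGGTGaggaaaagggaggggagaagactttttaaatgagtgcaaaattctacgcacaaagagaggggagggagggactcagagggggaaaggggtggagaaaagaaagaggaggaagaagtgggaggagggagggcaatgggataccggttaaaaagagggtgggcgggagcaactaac
Efnb2: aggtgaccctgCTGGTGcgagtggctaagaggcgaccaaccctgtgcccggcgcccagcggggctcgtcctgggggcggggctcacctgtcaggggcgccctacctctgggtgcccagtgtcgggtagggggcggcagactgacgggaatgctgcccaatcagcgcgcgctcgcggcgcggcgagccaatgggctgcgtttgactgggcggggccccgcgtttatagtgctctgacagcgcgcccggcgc
An N-box match lay 70 bases before the start in Dll4 (CACTAG), 175 in Gja5 (CTGGTG) and 234 in Efnb2 (CTGGTG), and Gja4 held ACAAT 82 bases before its start. Over the 8 windows, the N-box was found in 4 (Notch1 is the other) and the Sox core in 3 (Jag1 and Notch4 are the others), against 36.7% and 27.4% of 32536 promoters of this length. The windows of Notch1, Jag1, Jag2 and Notch4, which are not shown, overlap annotated exons of the same gene. The Rbpj core TGGGAA, searched on both strands, was in 0 of the 8 and in 21.6% of promoters. The E-box CACGTG, which reads the same on both strands, was in 0 of the 8 and in 6.04% of promoters. None of the matches in the windows shown overlap each other. The longest run that Gja4 and Gja5 have in common on the same strand was TGGGATACCGG, 141 and 31 bases before their starts and in 4 of the 32536 promoters, a pair looked at after the windows were seen. Other pairs of members shared longer runs on opposite strands. Gja4 and Notch1 shared 13 bases, also found in 4 promoters, and Gja5 and Jag1 shared 12 bases, found in 80. A shared run of this kind is therefore not particular to the connexins. These are matches of letters and no measurement of binding.

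The second question was how the genes differed between the sort groups, and the answer depends on the level of comparison. Over all cells of a library, 5 members were called higher and 0 lower in the Lin28-positive cKit-negative against the Lin28-negative library, where 22.1% of all genes were called higher and 25.4% lower. In the cKit-positive library 7 were higher and 1 lower against the Lin28-negative library (20.5% and 29% of all genes), and 3 higher and 1 lower against the Lin28-positive cKit-negative library (1.77% and 8.02%). Dll4, at 14.2, 36.5 and 42.5 CPM over all cells, and Notch1, at 49.1, 94.6 and 95.2 CPM, were lowest in the Lin28-negative library, the one with the smallest share of endothelial-like cells. Comparisons were therefore made within endothelial-like cells and within the capillary-like cluster. The 3 comparisons share libraries, so their values are given side by side and are not independent.

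Within endothelial-like cells all 10 members had at least 20 UMIs in each pair. For the Lin28-positive cKit-negative against the Lin28-negative library 2 members were called, Hes1 higher and Gja4 lower, where 3.9% of all genes were called higher and 6.95% lower. Against the Lin28-positive cKit-negative library, the cKit-positive one had Hey1, Gja4 and Gja5 higher and Jag1 lower (4 members; 3.39% of all genes higher and 3.43% lower). Against the Lin28-negative library it had Dll4 and Gja5 higher and Jag1 lower (3 members; 2.38% higher and 6.61% lower). The members' median log2 ratios in these 3 comparisons were 0.05, 0.09 and 0.09, beside -0.04, -0.01 and -0.05 over all genes measured.

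Hes1 was at 311, 566 and 411 CPM in endothelial-like cells, highest in the Lin28-positive cKit-negative library. The ratio to the Lin28-negative library was 1.82 (1.68 to 1.97). Within the capillary-like cluster it was 1.58 (1.42 to 1.77), the single call there among 8 measured members (3.31% of all genes called higher), and in the unnamed endothelial cluster 1.64 (1.36 to 1.99; 3.62% called higher). The arterial-like cluster had the same order of values, 313 against 602 CPM in 35 cells, and the lymphatic endothelial-like cluster had 410 against 1155 CPM in 19 and 17 cells, where 62 of the 139 UMIs behind the latter came from 1 cell (304 against 747.5 CPM without the richest cell of each library). Endocardial-like cells did not, at 179 against 173 CPM in 11 cells of the latter library. Fibroblast-like cells were at 205 (200.2 to 211) against 290.4 (241 to 347) CPM, but 32 of the 123 UMIs of the latter came from 1 of 34 cells, and without the richest cell of each library the levels were 204 and 223 CPM. The cKit-positive library had intermediate Hes1 in capillary-like cells (434 CPM) and in arterial-like cells (414 CPM), with ratios to the Lin28-negative library of 1.15 and 1.32 that were not called. In macrophage-like cells the 2 Lin28-positive libraries were at 157 and 162 CPM, a ratio of 1.03 (0.937 to 1.13).

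Depth, detection and mitochondrial share are set beside the Hes1 level here. Median UMIs per capillary-like cell were 3860.5, 7832.5 and 5268.5, the same order as the Hes1 level. A Hes1 UMI was found in 50.7%, 79.4% and 67.8% of endothelial-like cells, and after thinning every cell to 1000 UMIs (6, 4 and 5 shallower cells left out) 24.3%, 33.1% and 30.3%. With thinned cells the endothelial ratio was 1.44 (1.16 to 1.78), below the fold required. Median mitochondrial shares over all cells were 4.90%, 6.11% and 6.46%, highest in the cKit-positive library, which is not the order of Hes1. The part that depth or cell quality has in the Hes1 values was not tested. Hes1 was not restricted to endothelium: 65.1% of the fibroblast-like cells of the Lin28-negative library and 58.3% and 48.1% of the macrophage-like cells in the Lin28-positive libraries had a UMI.

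Gja4 was at 53.6, 18.7 and 43.3 CPM in endothelial-like cells (223, 37 and 116 UMIs), lowest in the Lin28-positive cKit-negative library. The ratios were 0.349 (0.239 to 0.495) for that library against the Lin28-negative one and 2.32 (1.59 to 3.45) for the cKit-positive against it. The share of endothelial-like cells in the arterial-like cluster had the same order, 33.9% (30.8 to 37.1), 14.4% (10.2 to 19.5) and 26.2% (22.1 to 30.6), as did the endocardial-like share, 11.6%, 4.53% and 7.48%. Within arterial-like cells Gja4 was at 144, 70.5 and 136 CPM (165, 15 and 85 UMIs), so the Lin28-positive cKit-negative library, with 35 such cells, was lowest there too, while the cKit-positive and Lin28-negative libraries differed by a ratio of 0.943 (0.717 to 1.23), not called. Endocardial-like cells had the opposite order, highest in the Lin28-positive cKit-negative library at the 259 CPM described above. With equal weight for each of the 4 endothelial clusters both Gja4 ratios turned, to 1.57 and 0.697. Equal weights without the richest cell of each cluster and library gave 0.933 and 0.987, and equal weights for the 3 clusters other than the endocardial-like one gave 0.488 and 1.93. The turn under equal weights therefore rests on the endocardial-like value, and these settings were chosen after seeing the data.

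Hey1 was at 90.6, 68.7 and 112 CPM in endothelial-like cells. The cKit-positive library was above the Lin28-positive cKit-negative library by a ratio of 1.63 (1.33 to 2.01), and with equal cluster weights the ratio was 0.804 (0.831 without the endocardial-like cluster). In capillary-like cells alone, where Hey1 is low, the levels were 32.5, 25.2 and 43.0 CPM from 49, 31 and 63 UMIs. The ratio of cKit-positive to Lin28-positive cKit-negative capillary-like cells was 1.71 (1.09 to 2.72), 1 of the 2 members called there, the other being Jag1, lower (2.4% of all genes higher and 3.17% lower). It was not called at a clustering resolution of 2. In arterial-like cells Hey1 was at 279, 461 and 366 CPM, highest in the Lin28-positive cKit-negative library (98 UMIs in 35 cells). The ratio of the cKit-positive to the Lin28-negative library there was 1.31 (1.10 to 1.56), not called. Arterial-like cells were 33.9%, 14.4% and 26.2% of endothelial-like cells, and the part of this share in the Hey1 values was not tested.

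Gja5 was found with 19, 4 and 24 UMIs in endothelial-like cells, in 16, 3 and 17 cells. The level was highest in the cKit-positive library, 8.97 CPM against 4.57 and 2.02 CPM. The ratios were 1.96 (1.03 to 3.79) against the Lin28-negative and 4.44 (1.52 to 17.6) against the Lin28-positive cKit-negative library, with wide intervals at this depth. In arterial-like cells the level was 33.6 against 16.6 CPM in the Lin28-negative library, a ratio of 2.02 (1.04 to 3.98), so the difference was as large within the arterial-like cluster (2.59% of all genes were called higher and 3.85% lower there). The share of arterial-like cells with a Gja5 UMI was 5.18%, 8.57% and 13.4%, with median UMIs of 3570, 6053 and 5140.5 per cell. The part of depth per cell in that share was not tested.

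**Figure D3:**
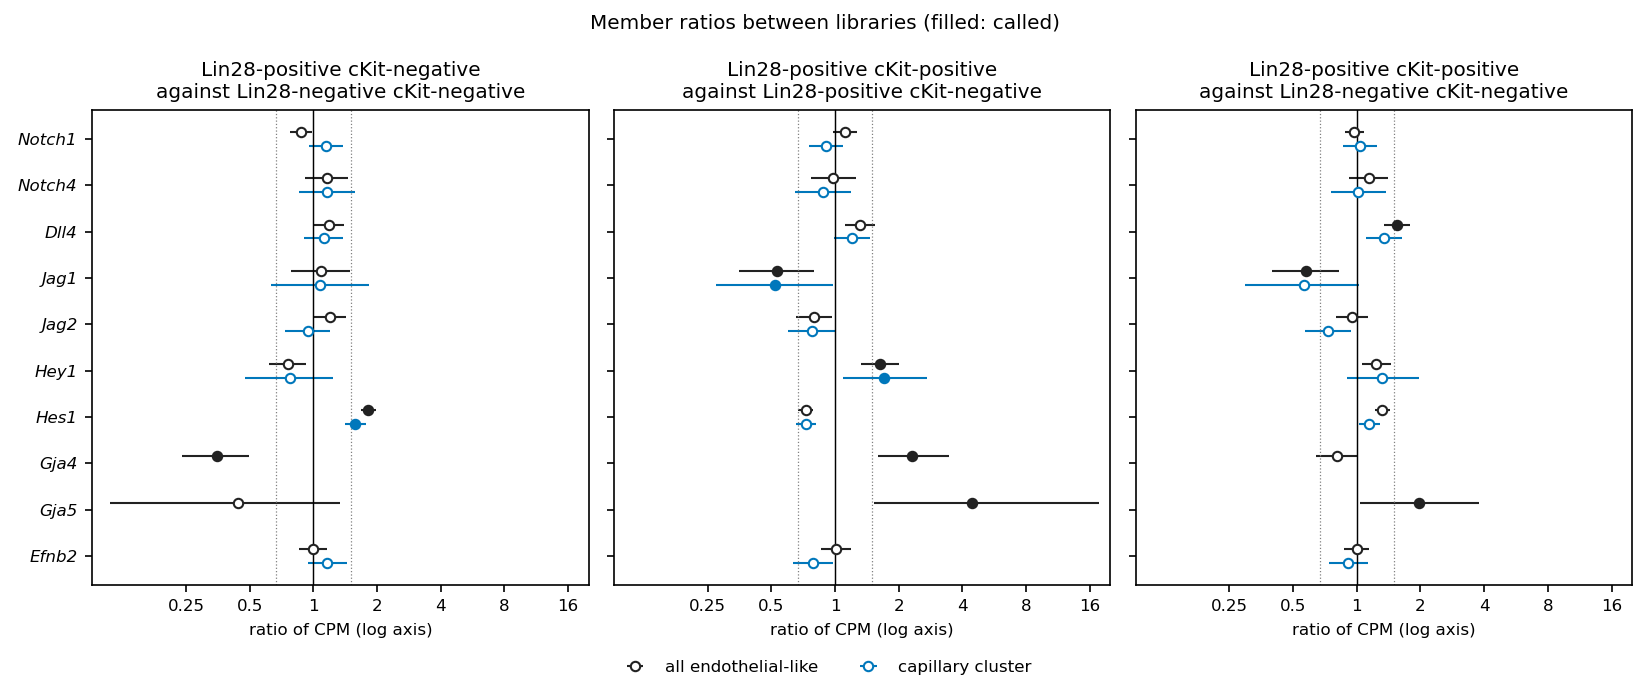
Ratio of CPM between libraries (log axis) for each gene, with 95% binomial intervals, in all endothelial-like cells (black) and in the capillary-like cluster (blue); filled points are called, dotted lines mark the fold of 1.5 in either direction, and pairs under 20 UMIs are left out. Hes1 is called in both for the Lin28-positive cKit-negative against the Lin28-negative library (1.82 and 1.58), and Jag1 in both for the 2 Lin28-positive libraries (0.530 and 0.522).

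Among the ligands, Jag1 was at 27.9, 30.3 and 16.1 CPM in endothelial-like cells, lowest in the cKit-positive library. The ratios were 0.576 (0.396 to 0.824) against the Lin28-negative and 0.530 (0.350 to 0.797) against the Lin28-positive cKit-negative library. Jag1 was also called lower in cKit-positive capillary-like cells against the Lin28-positive cKit-negative library, at 0.522 (0.273 to 0.972). In cKit-positive arterial-like cells against the Lin28-negative library the ratio was 0.383 (0.164 to 0.797), and in macrophage-like cells, between the 2 Lin28-positive libraries, 0.547 (0.331 to 0.900; 4.36% of all genes called lower). The counts behind these are small, 18 against 29 UMIs in capillary-like, 9 against 43 in arterial-like and 32 against 38 in macrophage-like cells. The unnamed endothelial cluster did not share the low value, at 24.6, 41.8 and 31.8 CPM. With equal cluster weights the Jag1 ratio of the cKit-positive to the Lin28-negative library did not reach the fold of 1.5.

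Dll4 was at 96.6, 114 and 149.8 CPM in endothelial-like cells, highest in the cKit-positive library. The ratio to the Lin28-negative library was 1.55 (1.35 to 1.78). Within clusters it was smaller and not called, 1.34 (1.11 to 1.63) in capillary-like and 1.30 (1.03 to 1.63) in arterial-like cells. In capillary-like cells 0 of 8 measured members were called in this comparison (6.02% of all genes). Dll4 UMIs were found in 29.4%, 46.1% and 48.8% of endothelial-like cells, beside 1.09% of the fibroblast-like cells of the Lin28-negative library and 4.14% and 2.87% of macrophage-like cells. After thinning to 1000 UMIs the shares in endothelial-like cells were 10.2%, 12.1% and 13.2%.

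Another 4 members were not called in any comparison within endothelial-like or capillary-like cells. Notch1 was at 223, 194 and 217 CPM in endothelial-like cells, Notch4 at 50.5, 58.6 and 57.5 CPM, Jag2 at 85.6, 103 and 81.1 CPM, and Efnb2 at 128, 127 and 128 CPM. Their endothelial ratios lay between 0.791 (Jag2, cKit-positive against Lin28-positive cKit-negative, 0.650 to 0.962) and 1.20 (Jag2, Lin28-positive cKit-negative against Lin28-negative, 1.00 to 1.43). The Efnb2 ratios were 0.992 (0.850 to 1.15), 1.01 (0.853 to 1.19) and 0.998 (0.869 to 1.15). An uncalled ratio does not show that a gene is equal in the sort groups, since the spread between animals is unknown.

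RNA of other cells differed between the libraries. In capillary-like cells the summed level of 10 fibroblast markers was 2223, 47.9 and 32.1 CPM, with Lum, Tcf21 and Mmp2 at 0 in the Lin28-positive cKit-negative library and Tcf21 at 0 in the cKit-positive library. The summed level of 10 macrophage markers was 12.0, 433 and 701 CPM, with Adgre1, Csf1r, C1qc, Fcgr1 and Mrc1 at 0 in the Lin28-negative library. Each pattern followed the most common other cell type of its library, and 7 pericyte markers were at 114, 369 and 211 CPM. The 10 endothelial markers summed to 7749, 7149 and 7577 CPM. In endocardial-like cells the fibroblast markers summed to 10459, 3924 and 4163 CPM, beside 4605, 6503 and 5365 CPM for the endothelial markers. In pericyte-like cells the macrophage markers summed to 15.9, 5903 and 521 CPM. The part of this RNA in the member values was not tested.

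The rest of the pathway was described with 10 lists, of which 95 of 105 genes were in the tables. The list counts below are to be read beside the shares of all genes called in endothelial-like cells. These were 3.9% higher and 6.95% lower for the Lin28-positive cKit-negative against the Lin28-negative library. For the cKit-positive library they were 3.39% and 3.43% against the Lin28-positive cKit-negative and 2.38% and 6.61% against the Lin28-negative library. In endothelial-like cells 3 of 4 receptors had enough UMIs and 0 were called in any pair. Of 15 measured genes that modify, cut or load Notch and its ligands, 1 was called higher for the Lin28-positive cKit-negative against the Lin28-negative library, 1 lower for the cKit-positive against it, and 0 in the remaining pair. That gene was Lfng, a glycosyltransferase that tunes ligand choice, at 17.1, 30.3 and 16.8 CPM (ratios 1.78 and 0.555). The proteases Adam10 (109, 126 and 102 CPM) and Adam17 (57.9, 59.6 and 57.9 CPM), which cut the receptor at the surface, and the gamma-secretase subunit Psenen (115, 94.5 and 102 CPM) were not called. Of 13 nuclear factors 0 were called for the Lin28-positive cKit-negative against the Lin28-negative library and 1, the coactivator Maml3, was lower for the cKit-positive against the Lin28-positive cKit-negative library. Rbpj, the DNA-binding partner, was at 41.8, 47.0 and 39.6 CPM. Lfng, Nrarp, Sox18, Maml3 and the other called list genes outside the most abundant of each list were chosen for mention after their values were seen.

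Among 9 target genes, Nrarp, a feedback inhibitor that Notch induces, was at 72.4, 84.4 and 112 CPM and called higher in the cKit-positive against the Lin28-negative library, at 1.55 (1.32 to 1.83). Hey2 and Heyl were called lower for the Lin28-positive cKit-negative against the Lin28-negative library on 2 against 28 and 5 against 31 UMIs, and Heyl also for the cKit-positive against the Lin28-negative library (2 against 31 UMIs, ratio 0.100). Heyl was higher outside endothelium, at 94.6 and 104 CPM in fibroblast-like cells of the Lin28-negative and Lin28-positive cKit-negative libraries against 7.45 and 2.53 CPM in endothelial-like cells, and the summed fibroblast markers in capillary-like cells (2223, 47.9 and 32.1 CPM) had the same order as Heyl; their part in its values was not tested. For the Lin28-positive cKit-negative against the Lin28-negative library 6 targets were measured. Hes1 was called higher, Hey2 and Heyl lower on the small counts above, and Hey1, Efnb2 and Nrarp neither. Of the inhibitor list, Numbl and Dtx2 were lower in that pair (1 against 19 and 12 against 50 UMIs). In the cKit-positive library Dtx2 was called higher against both others and Numbl lower against the Lin28-negative one, while Numb was at 91.6, 89.9 and 80.0 CPM without a call. In the connexin list, 4 of 8 genes in the tables had enough UMIs. Besides Gja4 and Gja5 these were Gja1 (connexin 43; 116, 117 and 112 CPM) and Gjc1 (connexin 45; 50.7, 60.1 and 46.7 CPM), neither of them called in any pair.

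The ephrin list (5 measured) had 1 call, Ephb1 higher for the Lin28-positive cKit-negative against the Lin28-negative library. Ephb4, the venous partner of Efnb2, was at 113, 137 and 104 CPM. Of 15 other arterial genes measured, 2 were higher and 6 lower for the Lin28-positive cKit-negative against the Lin28-negative library. The shares over all genes were 3.9% and 6.95%. For the cKit-positive against the Lin28-positive cKit-negative library 6 were higher and 1 lower, with shares of 3.39% and 3.43% over all genes. The 6 were Sema3g, Bmx, Fbln5, Stmn2, Alox12 and Tm4sf1 in both, and Sox18, an endothelial transcription factor, went the opposite way, at 148, 321 and 185 CPM. These 2 comparisons share a library, the one with the smallest arterial-like share (14.4%). Sema3g, Fbln5, Stmn2 and Alox12 are among the 8 markers used to name the arterial-like cluster. Their order is therefore no observation separate from that share. Bmx was higher in endocardial-like than in arterial-like cells, at 169 against 10.0 CPM in cells without a Gja5 UMI. Endocardial-like cells were 11.6%, 4.53% and 7.48% of endothelial-like cells, and the part of this share in the Bmx values was not tested. Sox18 kept the order of its endothelial-like values in capillary-like cells, 160.1, 307 and 177 CPM, as Hes1 did. For the cKit-positive against the Lin28-negative library 1 of 15 was higher (Cxcr4) and 1 lower (Fbln5). Of 8 venous genes measured 0 were higher in any pair and 2, 2 and 3 were lower, among them Vwf (392, 172 and 154 CPM), which in these cells lay mostly in endocardial-like (1598, 1481 and 1060 CPM) and unnamed endothelial cells and was at 3.98, 2.44 and 4.10 CPM in capillary-like cells.

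Genes with the most similar pattern were sought over 27 groups of at least 30 cells (clusters by library) among 8422 genes, by Pearson r of log2(CPM + 10), as a description without a test. The groups share libraries, depth and cell classes. Dll4 was most like Sox17 (0.973), Myo10 (0.968) and Cldn5 (0.965), and Jag2 like Adgrg1 (0.984), Dysf (0.976) and C1qtnf9 (0.973). For Notch4 the closest were Gimap8 (0.942), Cyyr1 (0.940) and Cdh5 (0.937), for Efnb2 Mcam (0.919), Akr1c14 (0.918) and Myo10 (0.892), and for Notch1 Cd2ap (0.936), Scarf1 (0.920) and F11r (0.919). The closest to Hey1 were Alpl (0.891), Msx1 (0.847) and Map4k3 (0.835), to Hes1 Spred2 (0.910), Tns1 (0.901) and Crk (0.899), to Jag1 Prkar1a (0.858), Snrnp27 (0.853) and Sox13 (0.849), and to Gja4 Eogt (0.795), Pcsk5 (0.788) and Azin1 (0.771). Gja5, with 50 UMIs, was not entered. Between members r ran from 0.258 for Jag2 with Gja4 to 0.912 for Dll4 with Efnb2.

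Single cells were used to see which members appeared together. At least 1 member was found in 442 of 456 arterial-like cells (96.9%), 712 of 754 capillary-like cells (94.4%) and 145 of 149 endocardial-like cells (97.3%). At least 4 members were found in 52.0%, 32.9% and 27.5% of them. Among arterial-like cells with a Hey1 UMI, 32.6% had a Gja4 UMI, against 16.8% of those without, and among 303 arterial-like cells with a Notch1 UMI 148 had a Dll4 UMI (48.8%), against 33.3% of those without. Cells with more UMIs show more genes of any kind, so these pairs do not separate depth from shared use.

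Gja5 was seen in 39 cells, of which 34 were arterial-like. The 34 had Gja4 at 390.5 CPM (306 to 492), against 107 CPM (92.6 to 123) in the other 422 arterial-like cells, and Jag2 at 195 against 107 CPM. Hey1 was at 456 against 313 CPM, Dll4 at 249 against 174 CPM, Efnb2 at 266 against 219 CPM and Notch1 at 320.0 against 308 CPM. Hes1 went the other way, at 184 CPM (128 to 258) against 396 CPM (367 to 426). Bmx, a kinase of large-artery endothelium, was at 59.7 against 10.0 CPM (11 and 18 UMIs) and Vwf at 38.0 against 3.33 CPM (7 and 6 UMIs). Both were higher in endocardial-like cells without a Gja5 UMI, Bmx at 169 and Vwf at 1468 CPM. Car4, a capillary marker, was at 16.3 against 102 CPM in the arterial-like cells (3 UMIs in the former). The cells were chosen by a Gja5 UMI from 3 libraries together and had more UMIs, with medians of 5461 against 3944, so the values describe this set of cells only.

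**Figure D4:**
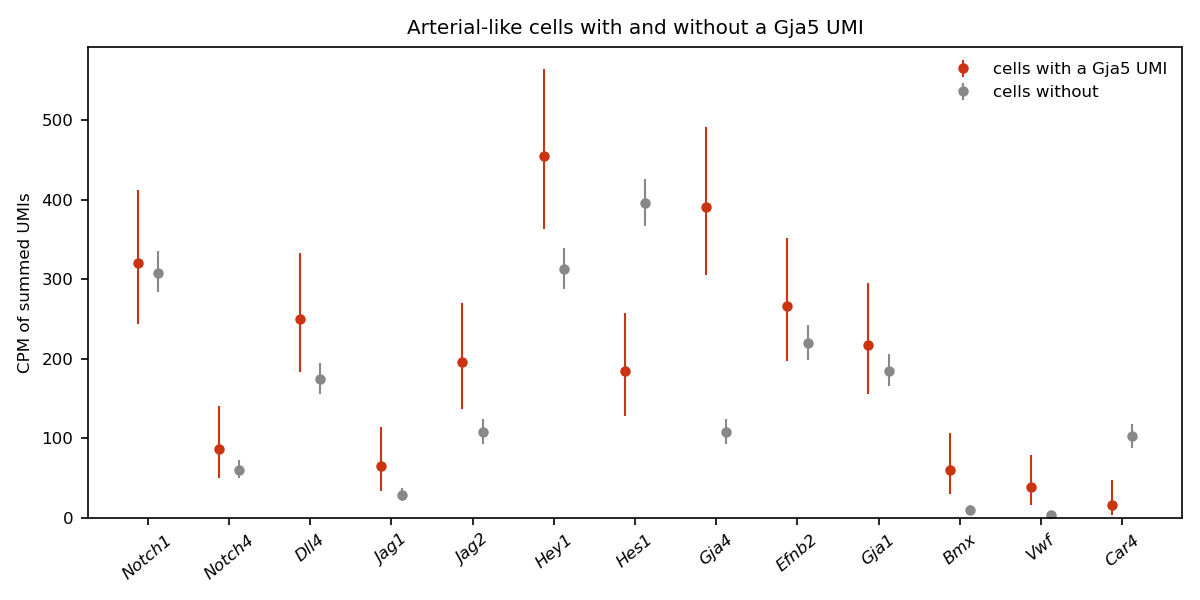
Levels (CPM of summed UMIs, y axis from 0) of members and 4 other genes along the x axis in arterial-like cells with (34 cells) and without (422 cells) a Gja5 UMI, with 95% Poisson intervals, over the 3 libraries together. Gja4 is higher with Gja5 (390.5 against 107 CPM) and Hes1 lower (184 against 396 CPM).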

How the data were processed

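The authors' deposited tables give, for each cell, natural log (ln) values of UMIs scaled to 10000 per cell. Per the submitters' processing notes, Cell Ranger (no version), mm10 and Seurat 4.0.2 were used; cell filters and the number of mice are details not given in the sources used here. Whole UMIs were recovered from the values and used throughout. Cells were clustered with scanpy 1.11.5 and leidenalg 0.10.2 at resolution 1 (15 neighbours on 30 principal components of 2000 variable genes, libraries not integrated), and clusters were named from marker lists of 17 classes and 4 endothelial subtypes (a score of at least 1.5 and at least 3 markers raised 2-fold). A class was compared where each library held 50 of its cells; values for smaller clusters stand side by side. Intervals (Poisson for levels, conditional binomial for ratios, Clopper-Pearson for shares, scipy 1.17.1) are 95% and cover counting error only. The call rule was tested on simulated Poisson counts with known fold changes. They hold no spread between cells or libraries, so the rule was not tested against such spread. Scrublet marked 26 of 5833 cells (0.446%), under what counts as having worked, so no doublet was removed. Named genes are all members and, of each list, the 2 to 4 genes with the most UMIs. Members and lists were chosen with earlier results of these data known. Positions are GENCODE vM21. Strand use in counting is not known: Notch1, Notch4, Dll4 and Gja5 overlap genes on the other strand, Efnb2 and Jag2 genes on their own. Alternatives covered scaling, means over cells, UMI minimums, resolution, doublet scores, mitochondrial share and thinning. Some list genes are not reported here.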

Additional observations from a re-analysis of the deposited data

How the results depend on the processing

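With every cell thinned to 1000 UMIs, which lowers the UMIs behind each value, the members called in endothelial-like cells went from 2 to 1 (Lin28-positive cKit-negative against Lin28-negative), from 4 to 1 (cKit-positive against Lin28-positive cKit-negative) and from 3 to 0 (cKit-positive against Lin28-negative). In capillary-like cells they went from 1 to 0, from 2 to 0 and from 0 to 1 in the same order, and members higher in arterial-like cells of all libraries from 8 to 4. For the 2 Lin28-positive libraries the capillary count was 0 with 100 UMIs required, 0 at resolution 2 and 1 without each member's richest cell. For the cKit-positive against the Lin28-negative library it was 1 with means over cells, 1 at resolution 0.5 and 1 without cells under 2000 UMIs. Equal weight for the 4 endothelial clusters gave 2 calls between the Lin28-positive libraries and 1 for the cKit-positive against the Lin28-negative library, and it turned 3 ratios: Gja4 to 1.57 and 0.697, and Hey1 to 0.804. Equal weights without the richest cells gave 2 calls between the Lin28-positive libraries and ratios there of 0.987 (Gja4) and 0.896 (Hey1); without the endocardial cluster they gave 1 call for the cKit-positive against the Lin28-negative library and 0.831 for Hey1, while Gja4 kept its direction (0.488 and 1.93). The richest-cell, 2000-UMI and equal-weight settings were chosen after seeing the data. With means over cells and with equal weights, a call rests on the fold of 1.5 and the UMI minimum alone. The interval was not applied there, so these counts follow a looser rule than the others. Of 747 alternative values for 54 ratios, 685 stayed within their limits, 56 moved and 6 reversed. Settings that change only the UMI minimum leave each ratio as it was, so their values are among the 685 by construction. The cause of the moves and reversals was not tested. Leaving out cells over 5% mitochondrial UMIs left under 50 cells in 5 of the 6 comparisons and was not run there. No paired analysis was possible because each group has 1 library and the labels give no replicate numbers.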

Other observations

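Small classes outside the comparisons carried some members too. Pericyte-like cells (45, 12 and 8 cells in the group order of the report) held 14.6% of all Gja4 UMIs with 0.717% of all UMIs, and 22, 7 and 5 of their cells had a Gja4 UMI. The same cluster had Notch1 at 101, 165 and 335 CPM; in the last library 11 of its 27 UMIs came from 1 cell. In the same cells 10 endothelial markers summed to 1854, 2324 and 5508 CPM and 7 pericyte markers to 11391, 11883 and 6910 CPM; their part in the Notch1 values was not tested. Lymphatic endothelial-like cells (19, 17 and 13 cells) had Hes1 at 410, 1155 and 1092 CPM (304, 747.5 and 722 CPM without the richest cell of each library, which held 62 of 139 and 52 of 115 UMIs in the last 2) and Notch1 at 253, 283 and 171 CPM, but 2 Notch4 and 2 Jag2 UMIs in all, and no Gja5 UMI.

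Depth limits Gja5 most: 50 UMIs over 5833 cells, so a library with 4 UMIs cannot show a change in level with any precision.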
